A study of Mus musculus with 8 samples.

Results

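The proteasome subunit genes are the 39 protein-coding genes named Psma, Psmb, Psmc or Psmd with a number, found by name among 54532 genes in the deposited table, of which 22046 are protein-coding. They comprise 8 Psma, 11 Psmb, 6 Psmc and 14 Psmd genes. The RNA-seq libraries number 8 and come from spermatocytes of C57BL/6J mice, with 1 library for each combination of stage (pachytene, P, or leptotene and zygotene, L/Z), genotype and age (postnatal day, PD, 24 or 52). MFN2 WT mice carried the alleles *Mfn2* loxp/loxp, and MFN2 cKO mice carried the same alleles with Stra8-Cre. The study's methods also count mice with 1 floxed allele as MFN2 WT and use littermates, so every mouse, controls included, carried at least 1 floxed allele. Stra8-Cre acts in male germ cells from spermatogonia to preleptotene spermatocytes, so somatic testis cells keep *Mfn2*. The stages were separated by sedimentation, which sorts cells by size, and neither the labels nor the study's methods give the number of mice behind a library. According to the study, most MFN2 cKO spermatocytes did not reach the pachytene stage, and it calls the cells sequenced pachytene or pachytene-like. P therefore need not be the same stage in both genotypes.

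The proteasome degrades proteins marked with ubiquitin. Its barrel-shaped 20S core has rings of alpha subunits (Psma), which gate the entrance, and rings of beta subunits (Psmb), of which *Psmb5*, *Psmb6* and *Psmb7* carry the protease sites. The 19S regulatory particle, built from ATPases that unfold substrates (Psmc) and non-ATPase subunits that bind and trim ubiquitin (Psmd), caps the core. In immune cells and under interferon *Psmb8*, *Psmb9* and *Psmb10* replace *Psmb5*, *Psmb6* and *Psmb7*, and *Psmb11* replaces *Psmb5* in the cortical epithelium of the thymus. In male germ cells *Psma8* takes the place of its paralog *Psma7*, and the resulting spermatoproteasome is needed in meiosis.

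The libraries held between 14340665 and 20379950 reads on genes, and between 0.381% and 0.544% of these fell on the 39 proteasome genes. The targeted gene, *Mfn2*, had lower values in the MFN2 cKO library of all 4 pairs: MFN2 WT and MFN2 cKO were at 77.1 and 39.6 FPKM in P spermatocytes at PD 24, 82.2 and 34.3 in L/Z at PD 24, 62.2 and 50.1 in P at PD 52, and 97.53 and 47.9 in L/Z at PD 52. *Piwil1*, a pachytene gene, was 168 to 278 FPKM in the P libraries and 15.98 to 40.6 in the L/Z libraries. The stage marker lists did not part the stages in this way. The summed FPKM of 9 pachytene genes, *Piwil1* included, was 2437 to 3885 in P and 2256 to 3933 in L/Z. That of 10 leptotene and zygotene genes was 215 to 278 in P and 170 to 259 in L/Z. Lists of other cell types did not keep to the labelled stage either. The summed FPKM of 13 spermatid genes was 154 to 21530 and was highest in the L/Z libraries of PD 52. That of 10 Sertoli genes was 28.9 to 883 and was highest in P at PD 24. None of the marker genes was at 0 in all 8 libraries. In these bulk samples fewer cells of a type and less RNA per cell cannot be told apart.

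Of the 39 genes, 37 passed 1 FPKM in some library, 36 in every library, and 27 were above 10 in every library. FPKM gives the fragments of a gene per kilobase of its length, relative to the size of the library. Levels were compared between genes on this scale, by the median over the 8 libraries. *Psmc3*, an ATPase subunit, was the highest at 256 FPKM (207 to 320.2), and the next were *Psma6* at 136 (65.8 to 342), *Psmd2*, a scaffold subunit that binds ubiquitin shuttle factors, at 128 (117 to 145), and *Psmd8* at 98.8 (73.9 to 132). Among the constitutive beta subunits the median was highest for *Psmb6* at 66.2 and lowest for *Psmb3* at 16.5. The lowest alpha subunit was *Psma2* at 9.90, the lowest ATPase *Psmc6* at 14.4 and the lowest non-ATPase gene *Psmd5* at 3.53, a chaperone of 19S assembly. The table's gene length was 1 to 3.36 times the length of the principal transcript, so levels per kilobase of that transcript differ: *Psmc3* stayed first, *Psmd8* was the second, and *Psma6* became the fifth.

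**Figure D1:**
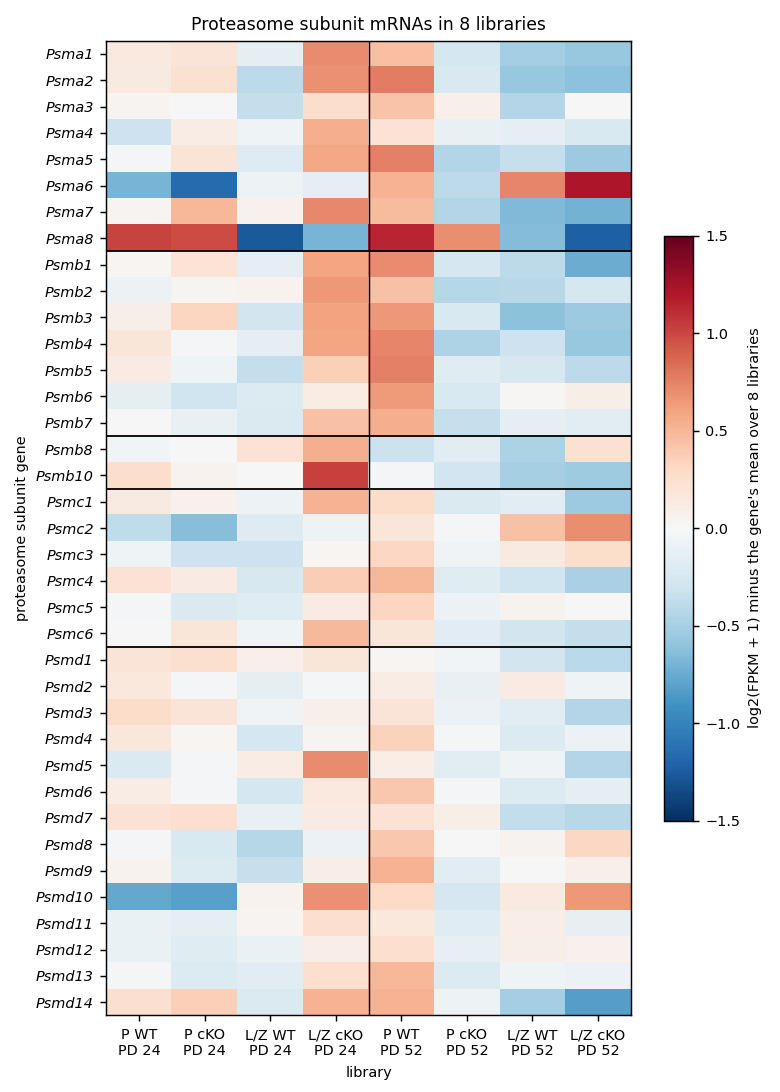
Each row is 1 of the 37 proteasome genes that passed 1 FPKM in some library, each column 1 library, and the colour is log2(FPKM + 1) minus the gene's mean over the 8 libraries, red above and blue below. Most rows are reddest in P MFN2 WT at PD 52, where 20 of 37 genes have their highest value, or in L/Z MFN2 cKO at PD 24, where 11 do; *Psma6*, *Psma8*, *Psmc2* and *Psmd10* have patterns of their own.

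The genes differed in how much they varied. *Psmd2* varied least, with its highest library at 1.24 times its lowest, followed by *Psmd12* at 1.37 and *Psmd11* at 1.38 times. *Psma6* and *Psma8* varied most among the genes above 1 FPKM in every library, at 5.19 and 5.51 times. Most of the others moved together between libraries. P MFN2 WT at PD 52 held the highest value of 20 of the 37 genes and L/Z MFN2 cKO at PD 24 that of 11, whereas L/Z MFN2 cKO at PD 52 held the lowest value of 16. Each of these libraries enters 1 genotype, 1 stage and 1 age comparison, so those comparisons are not independent.

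Across the 4 pairs of MFN2 cKO and MFN2 WT, no proteasome gene passed the test for genotype. The common effect over the pairs, from limma on log2(FPKM + 1) with the pair as a block and Benjamini-Hochberg adjustment over 21175 genes, called 0 of the 37 tested genes, while it called 0.137% of all genes. At an unadjusted p-value under 0.05 it also gave 0 of the 37, beside 6.93% of all genes. The effects lay between -0.24 (*Psma6*, SE 0.24, adjusted p = 0.906) and 0.31 (*Psmb8*, SE 0.19, adjusted p = 0.811), and their median was -0.02, beside -0.04 for all genes. With 1 library a group no difference within a pair has a replicate check, so those below are descriptions.

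In L/Z spermatocytes at PD 24, 36 of the 37 genes were higher in MFN2 cKO, with a median log2 difference of 0.57, beside 0.08 for all genes. *Psmb8* passed the filter only through the MFN2 cKO library, and of the 36 genes above 1 FPKM in every library 35 were higher (median 0.58). All 7 constitutive beta subunits were higher, with a median of 0.72, as were all 6 ATPases (0.45) and all 14 non-ATPase genes (0.33). *Psma2*, an alpha subunit, had 518 reads and 7.46 FPKM in the MFN2 WT library and 1100 reads and 16.9 FPKM in the MFN2 cKO library, a ratio of 2.26 (95% interval 2.04 to 2.52 from the reads, exact binomial method). *Psmb10*, an immune subunit, was 3.82 FPKM (123 reads) and 8.86 (268 reads), a ratio of 2.32 (1.87 to 2.90). These 2 genes, 5.41% of the 37, were at least 2-fold higher on the log2(FPKM + 1) scale, where 3.45% of all genes were. With median-of-ratios scaling, equal protein-coding totals or the length adjustment described further on, 1 gene was. Only *Psma6* was not higher, at 139 FPKM in MFN2 WT and 134 in MFN2 cKO. Markers of other cells differed in this pair. From MFN2 WT to MFN2 cKO the summed FPKM was 2888 and 569 for the spermatid genes and 36.8 and 207 for 8 Leydig genes. It was 144.5 and 194 for 10 spermatogonia genes, 71.0 and 141 for 12 macrophage and lymphocyte genes, and 293 and 255 for the Sertoli genes. Their part in the higher proteasome values was not tested.

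In P spermatocytes at PD 52 the direction was the opposite, and all 36 genes that passed the FPKM filter were lower in MFN2 cKO, with a median of -0.47, beside -0.05 for all genes. The constitutive beta subunits had a median of -0.89 and the alpha subunits one of -0.81, while the ATPase and non-ATPase genes had medians of -0.39 and -0.37. *Psmb4* was 91.0 FPKM in MFN2 WT and 39.0 in MFN2 cKO, a ratio of 0.428 (0.399 to 0.459), and *Psma5* was 49.7 and 21.2, a ratio of 0.426 (0.379 to 0.478). They were the 2 genes at least 2-fold lower, 5.56% of the 36, where 5.78% of all genes were. With a pseudocount of 0.1 this count was 4, and with equal protein-coding totals it was 0. Markers of other cells differed in the same pair: from MFN2 WT to MFN2 cKO the summed FPKM was 124 and 62.6 for 10 spermatogonia genes, 678 and 325 for the Sertoli genes, 5349 and 2583 for the spermatid genes and 261 and 666 for 8 Leydig genes. Their part in the lower proteasome values was not tested.

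In the other 2 pairs the genes were more evenly split. For P spermatocytes at PD 24, 13 genes were higher and 23 lower in MFN2 cKO (median -0.08, beside -0.10 for all genes), and at equal protein-coding totals only 6 were lower. For L/Z spermatocytes at PD 52, 12 were higher and 24 lower (median -0.04, beside 0.02). In neither pair did a proteasome gene reach a 2-fold difference, where 8.08% and 7.95% of all genes did in either direction. *Psma7* is given in full, although in P at PD 24 its rise was the largest of the genes (0.45) and most others were lower. In MFN2 WT and MFN2 cKO it was 11.5 and 16.2 FPKM in P at PD 24, 11.7 and 18.98 in L/Z at PD 24, 15.8 and 7.99 in P at PD 52, and 6.70 and 6.42 in L/Z at PD 52. It was thus higher in MFN2 cKO in both pairs at PD 24 and lower in both pairs at PD 52.

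**Figure D2:**
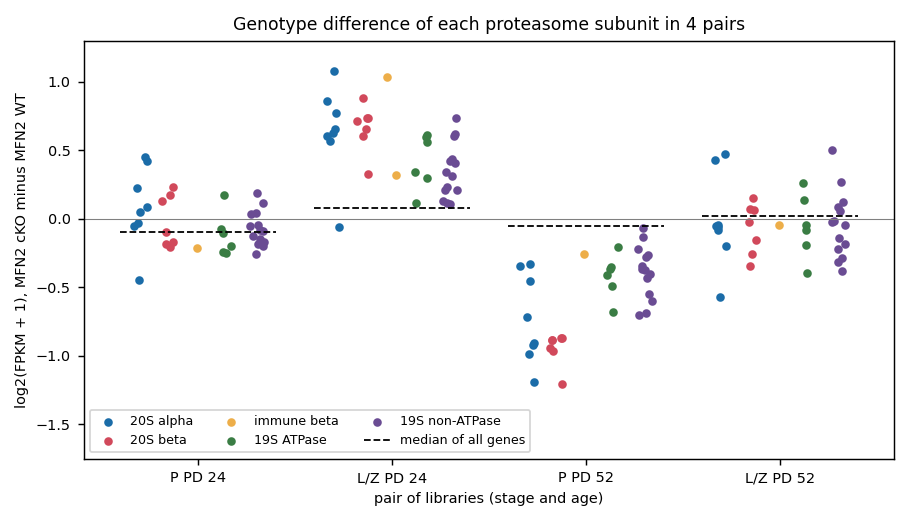
Each point is 1 proteasome gene with an FPKM above 1 in either library of the pair, placed by the difference of log2(FPKM + 1), MFN2 cKO minus MFN2 WT, coloured by its place in the complex, and the dashed line is the median of all genes tested in that pair. In L/Z at PD 24 all points but 1 lie above 0, and in P at PD 52 all lie below 0, with the 20S alpha and beta subunits farthest down.

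The difference of the genotype effect between the ages was tested directly, by an interaction term in limma. None of the 37 genes was called after Benjamini-Hochberg adjustment, and 3 of all genes were (0.0142%). At an unadjusted p-value under 0.05 there were 6 (16.2%, beside 12.5% of all genes): *Psmb1*, *Psma7*, *Psma5*, *Psmd14*, *Psmd5* and *Psma4*, and in all 6 the effect was lower at PD 52. The largest of these differences was -1.20 for *Psma5* (SE 0.43, limma adjusted p = 0.337), and for *Psmb1* it was -1.11 (SE 0.36, adjusted p = 0.301). Of the 37 genes, 34 had a lower genotype effect at PD 52 than at PD 24, with a median difference of -0.48, beside 0.03 for all genes. The count at an unadjusted p-value under 0.05 moved with the scaling. It was 14 of 37 (37.8%, beside 12.4% of all genes) with equal protein-coding totals. After the length adjustment described below it was 10 of 38 (26.3%, beside 19.3%).

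A trend with transcript length moved with these pairs. Among other protein-coding genes with a mean above 10 FPKM, the median genotype difference in P at PD 52 was -0.77 for 625 genes with principal transcripts under 1000 bases, -0.34 from 1000 to 2000 bases, -0.04 from 2000 to 4000 and 0.25 above. In L/Z at PD 24 the same classes had medians of 0.30, 0.24, 0.05 and -0.17. The proteasome genes have mostly short transcripts: of the 37 measured in L/Z at PD 24, 5 are under 1000 bases and 23 between 1000 and 2000 bases. Within a class they lay beyond the other genes in L/Z at PD 24, with medians of 0.65, 0.57 and 0.32 in the first 3 classes. In P at PD 52 their medians were -0.88, -0.47 and -0.35. After each library was divided by its trend with length, 35 of 37 genes were higher in MFN2 cKO in L/Z at PD 24 (median 0.43, beside 0.14 for all protein-coding genes), and 30 of 36 were lower in P at PD 52 (median -0.20, beside -0.04). In L/Z at PD 52, 29 of 36 were then lower (median -0.14, beside -0.01), and in P at PD 24 21 of 37 were (median -0.03, beside 0.01). The 35 higher genes include *Psmb8*, which passed the filter only through the MFN2 cKO library. The 21 lower genes in P at PD 24 include *Psmb9*, which passed only through the MFN2 WT library. After that adjustment no proteasome gene reached a 2-fold difference in P at PD 52 and 1 did in L/Z at PD 24. What sets the length trend was not tested.

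**Figure D3:**
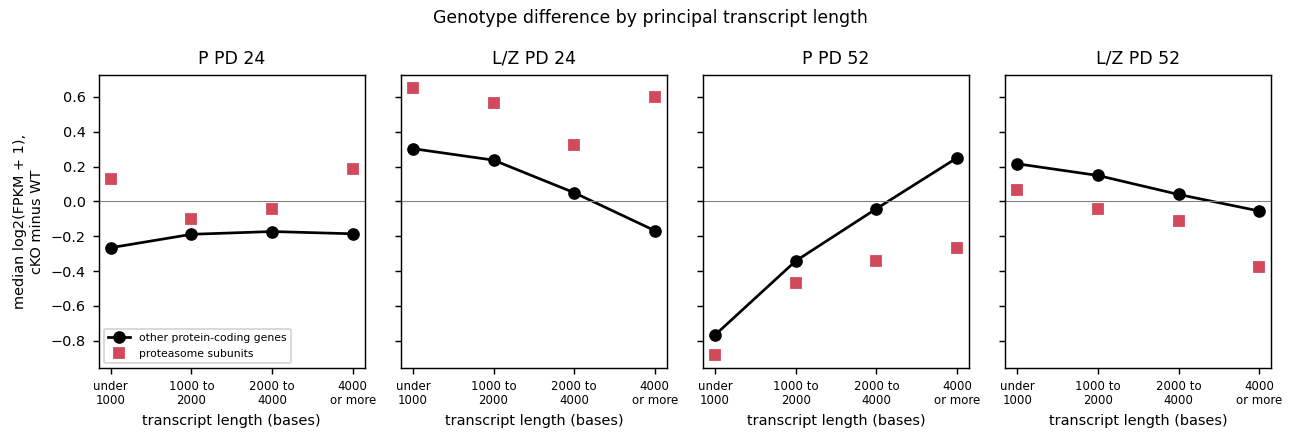
Each panel is 1 genotype pair, the horizontal axis gives 4 classes of principal transcript length in bases, and the vertical axis the median difference of log2(FPKM + 1), MFN2 cKO minus MFN2 WT, for other protein-coding genes (black line) and for the proteasome genes (red squares). In P at PD 52 the black line climbs from -0.77 to 0.25 with length, and in L/Z at PD 24 it drops from 0.30 to -0.17; the class of 4000 bases or more holds 1 proteasome gene.

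Between the stages, *Psma8*, the alpha subunit of the spermatoproteasome, stood apart from its complex. Its FPKM in P and L/Z was 106 and 21.1 in MFN2 WT at PD 24, 104 and 31.7 in MFN2 cKO at PD 24, 116 and 32.6 in MFN2 WT at PD 52, and 84.7 and 21.7 in MFN2 cKO at PD 52. The lowest P library lay above the highest L/Z library. The ratios were 5.03 (4.63 to 5.46), 3.27 (3.04 to 3.52), 3.56 (3.30 to 3.85) and 3.91 (3.56 to 4.31). *Psma8* rose in P by 1.92 on the log2 scale (SE 0.16, limma adjusted p = 0.00196), higher in 4 of 4 pairs. It and *Psma6* were the 2 of 37 genes (5.41%) called for stage in either direction, where 28.4% of all genes were. The call was lost without the MFN2 WT pair at PD 24 (1.80, adjusted p = 0.054) and without the MFN2 cKO pair at PD 52 (1.92, adjusted p = 0.0557), in fits that called 0 of all genes.

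*Psma7*, which *Psma8* replaces, did not follow. Its stage effect was 0.29 (SE 0.23, limma adjusted p = 0.373), with P above L/Z in 2 of 4 pairs, and its values in P and L/Z overlapped. *Psma8* therefore made up more of the pair of paralogs in P. By FPKM its share of *Psma7* plus *Psma8* in P was 90.2% (89.4 to 90.9, exact binomial interval) in the MFN2 WT library of PD 24, 86.5% in its MFN2 cKO partner, and 88.0% and 91.4% in the same order at PD 52. In L/Z the share was 64.3% (61.7 to 66.7) and 62.6% at PD 24, and 83.0% and 77.2% at PD 52. The stage difference was 17.3 percentage points on average (SD 9.62, n = 4 pairs), above 0 in 4 of 4 pairs, and an exact sign-flip permutation test gave a two-sided p = 0.125, the smallest that 4 pairs allow. The genotype difference was -1.95 points (SD 3.92, exact permutation p = 0.375) and the age difference 9.003 points (SD 9.43, exact permutation p = 0.25).

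The size of that share rests on the gene length used, since the table gives *Psma7* a length of 3071 bases against 914 for its principal transcript, and *Psma8* 1693 against 1692. Per kilobase of the principal transcripts *Psma8* was 73.2%, 65.6%, 68.6% and 75.96% of both in the P libraries, in the order above. In L/Z at PD 24 it was then below *Psma7*, at 34.9% and 33.2%, and in L/Z at PD 52 it was 59.2% and 50.1%. The stage difference became 26.5 points, again above 0 in every pair. The principal transcript of neither gene shares any 50-base window with transcripts of another gene in GENCODE mouse release 21, so reads within these transcripts are not split with a copy. The rest of the table's gene length, which is most of it for *Psma7*, was not searched. *Psma7* lies on the reverse strand of chromosome 2, from 180036374 to 180042433 in GRCm38, and *Psma8* on chromosome 18.

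**Figure D4:**
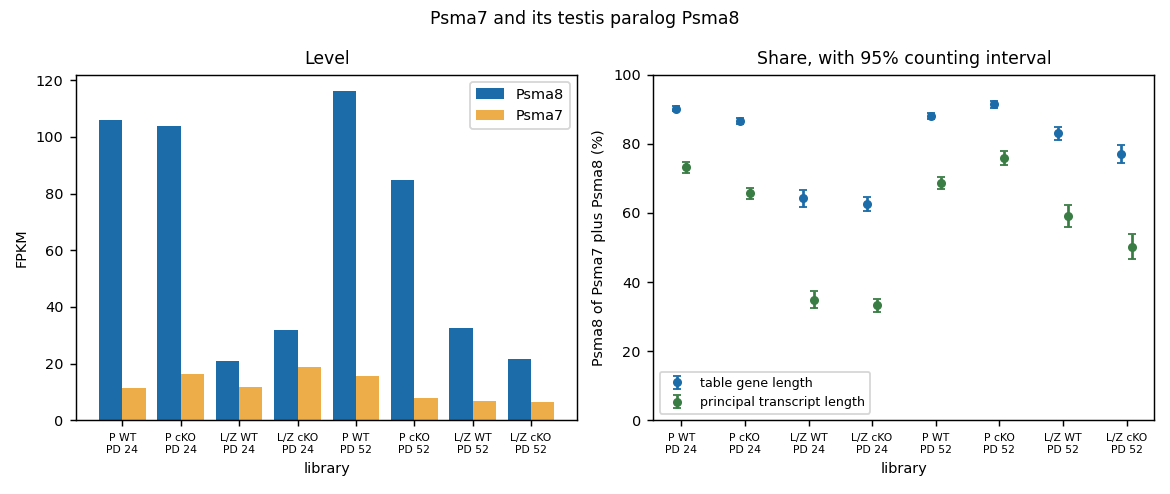
The left panel shows the FPKM of *Psma8* (blue) and *Psma7* (yellow) in each library, and the right panel the share of *Psma8* in their sum with its 95% counting interval, per kilobase of the table's gene length (blue) or of the principal transcript (green). *Psma8* is between 84.7 and 116 FPKM in the 4 P libraries and between 21.1 and 32.6 in the 4 L/Z libraries, while *Psma7* stays between 6.42 and 18.98.

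*Psma6*, another alpha subunit of the core ring, lay on the other side. Its FPKM in P and L/Z was 90.2 and 139 in MFN2 WT at PD 24, 65.8 and 134 in MFN2 cKO at PD 24, 212 and 246 in MFN2 WT at PD 52, and 112 and 342 in MFN2 cKO at PD 52. It was lower in P in every pair, and the stage effect was -0.86 (SE 0.24, limma adjusted p = 0.0344). The call was lost in limma without the FPKM filter (adjusted p = 0.109), without the pair block (adjusted p = 0.232) and without the MFN2 WT pair at PD 24, the MFN2 cKO pair at PD 24 or the MFN2 cKO pair at PD 52 (adjusted p from 0.125 to 0.15). The effect was -0.86 in the first 2 of these fits and -1.08 to -0.62 with 1 pair left out, and the fits without MFN2 WT at PD 24 or MFN2 cKO at PD 52 called 0 of all genes. At an unadjusted p-value under 0.05 the stage effect held 4 further genes, which made 16.2% of the 37, beside 41.8% of all genes: *Psmd10* (-0.77) and *Psmc2* (-0.43) were lower in P, and *Psmd14* (0.52), the deubiquitinase of the 19S particle, and its partner *Psmd7* (0.38) were higher. The median stage effect of the 37 genes was 0.10, beside -0.04 for all genes.

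Within the stage pairs the complex as a whole did not keep one direction. MFN2 WT at PD 52 had 33 of 36 genes higher in P, with a median of 0.56, beside -0.06 for all genes. There 9 genes (25.0%) were at least 2-fold higher in P, against 9.90% of all genes: *Psma2*, *Psma5*, *Psma7*, *Psma8*, *Psmb1*, *Psmb3*, *Psmb4*, *Psmb5* and *Psmd14*. *Psma2* had the largest ratio of these after *Psma8*, at 17.9 and 6.49 FPKM (2.76, 2.44 to 3.12). The count was 4 with median-of-ratios scaling and 2 after the length adjustment. In that pair the summed FPKM in P and L/Z was 678 and 28.9 for the Sertoli genes and 261 and 28.2 for the Leydig genes. It was 5349 and 12160 for the spermatid genes and 11.1 and 52.8 for the macrophage and lymphocyte genes. Their part in the difference was not tested. MFN2 cKO at PD 24 had 32 of 37 genes lower in P, with a median of -0.39, beside -0.09 (31 of the 36 genes above 1 FPKM in every library). *Psmd10*, an assembly chaperone also known as gankyrin, was there 4.57 FPKM in P and 14.7 in L/Z, a ratio of 0.310 (0.252 to 0.381). It and *Psma6* were the 2 genes at least 2-fold lower (5.41%), against 11.8% of all genes, and *Psma8* was the 1 gene higher (2.70%), against 8.18%. With a pseudocount of 0.1, 5 genes differed 2-fold.

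The remaining stage pairs were MFN2 WT at PD 24, with 28 of 36 genes higher in P (median 0.23), and MFN2 cKO at PD 52, with 22 of 36 higher (median 0.11). At PD 24 *Psma8* was the only gene at least 2-fold higher in MFN2 WT (2.78%), where 8.03% of all genes were. At PD 52 in MFN2 cKO, *Psma8* was 2-fold higher (2.78%, against 9.41%) and *Psma6* 2-fold lower (2.78%, against 15.3%). No proteasome gene, and 0 of all genes (0%), had a stage effect that differed between the ages after adjustment in limma, while at an unadjusted p-value under 0.05 there were 2 (5.41%), *Psmd5* and *Psmb1*, and 1983 of all genes (9.36%). The unadjusted count was 14 of 37 (37.8%, beside 10.9%) with equal protein-coding totals, where all 37 differences were above 0. After the length adjustment it was 6 of 38 (15.8%, beside 17.5%).

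Age set *Psma6* and *Psmc2* apart. *Psmc2*, an ATPase subunit, was 47.3 FPKM at PD 24 and 70.7 at PD 52 in P MFN2 WT, 39.6 and 61.2 in P MFN2 cKO, 54.0 and 84.3 in L/Z MFN2 WT, and 58.7 and 101.1 in L/Z MFN2 cKO. Every PD 52 library lay above every PD 24 library. *Psmc2* rose with age by 0.65 on the log2 scale (SE 0.12, limma adjusted p = 0.0212) and *Psma6* by 1.04 (SE 0.15, limma adjusted p = 0.0148), each in 4 of 4 pairs. *Psma6* was higher at PD 52 by a ratio of 2.35 (2.23 to 2.48) in P MFN2 WT, 1.70 in P MFN2 cKO, 1.76 in L/Z MFN2 WT and 2.55 (2.44 to 2.67) in L/Z MFN2 cKO. These were 2 of 37 genes (5.41%) called higher at PD 52, where 11.9% of all genes were, and none was called lower, where 5.41% of all genes were. With equal protein-coding totals the calls over all genes turned from 2523 higher and 1146 lower to 1709 and 3133.

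Both calls were lost in some fits, mostly with effects of like size. For *Psmc2* limma gave an adjusted p of 0.0503 without the FPKM filter and 0.0979 with equal protein-coding totals (0.34), and both calls were lost without the L/Z MFN2 WT, the L/Z MFN2 cKO or the P MFN2 cKO pair (adjusted p from 0.0728 to 0.14), where limma called 0 of all 21175 genes. With 1 pair left out the effects stayed between 0.93 and 1.13 for *Psma6* and between 0.61 and 0.68 for *Psmc2*. Without the pair block limma gave adjusted p-values of 0.134 for *Psma6* and 0.12 for *Psmc2*. The spermatid genes moved with both: their summed FPKM at PD 24 was 1435 and 154 in P MFN2 WT and MFN2 cKO and 2888 and 569 in L/Z, and at PD 52 it was 5349 and 2583 in P and 12160 and 21530 in L/Z. *Psma6*, *Psmc2* and this sum all had their lowest value in P MFN2 cKO at PD 24 and their highest in L/Z MFN2 cKO at PD 52. The part of spermatid RNA in the rise of *Psma6* and *Psmc2* was not tested.

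RefSeq lists a promoter for 32 of the 39 proteasome genes on GRCm38.p6, and *Psma6* and *Psmc2* are the 2 of these with a pair of start sites, while 15.4% of all 27025 genes with a promoter have 2 or more. Their sequences are shown because these are the genes called for age, and the FPKM of a gene adds the transcripts from both starts. Each runs from 250 bases before to 50 after the start site. Capitals mark a CCAAT box, on either strand, or a MYB motif (AACNGTT). The start sites of *Psma6* are 14603 bases apart on the forward strand of chromosome 12, at chr12:55383972-55384271 and chr12:55398575-55398874. Those of *Psmc2* are 1472 bases apart on the forward strand of chromosome 5, at chr5:21785025-21785324 and chr5:21786497-21786796.
*Psma6* first start: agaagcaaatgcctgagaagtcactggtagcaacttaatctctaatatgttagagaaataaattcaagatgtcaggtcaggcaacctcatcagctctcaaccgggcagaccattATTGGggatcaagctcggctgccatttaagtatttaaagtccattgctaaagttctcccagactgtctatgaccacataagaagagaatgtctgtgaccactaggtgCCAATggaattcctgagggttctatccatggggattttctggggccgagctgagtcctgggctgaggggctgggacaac
*Psma6* second start: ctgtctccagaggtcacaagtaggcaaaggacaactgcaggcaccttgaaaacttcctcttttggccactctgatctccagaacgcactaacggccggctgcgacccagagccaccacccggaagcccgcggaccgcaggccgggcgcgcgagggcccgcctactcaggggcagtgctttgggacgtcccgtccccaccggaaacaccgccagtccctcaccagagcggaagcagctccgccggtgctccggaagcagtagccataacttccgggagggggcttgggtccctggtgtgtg
*Psmc2* first start: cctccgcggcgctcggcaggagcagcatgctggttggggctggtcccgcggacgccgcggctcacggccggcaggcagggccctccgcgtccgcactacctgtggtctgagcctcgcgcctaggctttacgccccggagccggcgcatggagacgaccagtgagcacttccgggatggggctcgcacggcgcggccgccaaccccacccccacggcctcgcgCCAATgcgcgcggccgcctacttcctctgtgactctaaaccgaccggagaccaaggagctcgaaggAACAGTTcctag
*Psmc2* second start: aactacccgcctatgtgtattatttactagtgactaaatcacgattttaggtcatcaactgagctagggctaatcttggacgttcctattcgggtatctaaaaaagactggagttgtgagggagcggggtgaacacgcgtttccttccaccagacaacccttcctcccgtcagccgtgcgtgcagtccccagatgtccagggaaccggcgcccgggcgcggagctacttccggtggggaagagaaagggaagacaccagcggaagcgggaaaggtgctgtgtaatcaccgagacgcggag

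The motifs stand at the first start of each gene, and none of those searched is in the window of the second. The first window of *Psma6* holds a CCAAT box on each strand, and that of *Psmc2* a CCAAT box and a MYB motif. Over the 32 genes, a CCAAT box was in the promoter of 40.6%, as in 41.1% of all genes, and an antioxidant response element (TGACNNNGC) in 15.6%, beside 14%. The latter was found for *Psmb5*, *Psmb6*, *Psmc6*, *Psmd9* and *Psmd12*. An interferon-stimulated response element (GAAA and GAAA with any 2 bases between) was in 9.38%, beside 3.99%, namely in *Psmb3*, *Psmd4* and *Psmd9*. The MYB motif was in 9.38% (*Psmc2*, *Psmc5* and *Psmd6*), beside 5.01%, and the CRE (TGACGTCA) in 0 of 32, beside 2.03%. Both strands were searched, the motifs may overlap, and a match is a run of letters only.

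Among the pairs of ages, the largest shift was in L/Z MFN2 cKO, where 33 of 37 genes were lower at PD 52, with a median of -0.54, beside 0.01 for all genes. There 11 genes (29.7%) were at least 2-fold lower, against 12.6% of all genes, and *Psma6* was the 1 gene 2-fold higher (2.70%), against 18.8%. The 11 were *Psma1*, *Psma2*, *Psma5*, *Psma7*, *Psmb1*, *Psmb3*, *Psmb4*, *Psmb10*, *Psmc1*, *Psmd5* and *Psmd14*. *Psma7* went from 18.98 FPKM to 6.42, a ratio of 0.338 (0.296 to 0.386), and *Psmd14* from 19.2 to 6.91, a ratio of 0.360 (0.315 to 0.412). *Psmb1* was 28.3 and 10.6 (0.375, 0.344 to 0.408), and *Psma1* was 21.03 and 8.07 (0.384, 0.339 to 0.433). *Psmd5* was 6.64 and 2.44 (0.368), *Psmb3* 26.8 and 11.5 (0.429), and *Psmc1* 72.7 and 34.2 (0.470). With equal protein-coding totals 19 genes differed 2-fold in either direction. Over the 36 genes above 1 FPKM in every library, 32 were lower. In the same pair the spermatogonia sum was 194 FPKM at PD 24 and 53.6 at PD 52, and the spermatid sum 569 and 21530, and their part in the difference was not tested.

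P MFN2 WT went the other way, with 32 of 36 genes higher at PD 52 and a median of 0.38, beside -0.02 for all genes. *Psma6* and *Psmd10* were the 2 at least 2-fold higher (5.56%), against 9.43% of all genes. *Psmd10* was 4.79 and 11.1 FPKM, a ratio of 2.31 (1.88 to 2.86). With equal protein-coding totals 1 gene was, and after the length adjustment none was. After division by the length trend this direction was lost, with 15 genes higher and 22 lower (median -0.05). The 22 include *Psmb9*, which passed the filter only through the PD 24 library. In the same pair the spermatid sum was 1435 FPKM at PD 24 and 5349 at PD 52, and the Leydig sum 20.7 and 261. The macrophage and lymphocyte sum was 28.5 and 11.1, and the Sertoli sum 720 and 678. Their part in the difference was not tested. P MFN2 cKO had 25 of 36 genes lower at PD 52 and L/Z MFN2 WT 19 of 36, with medians of -0.20 and -0.07. No proteasome gene differed 2-fold there, where 18.9% and 13.3% of all genes did in either direction. In L/Z MFN2 WT, 30 genes were lower with equal protein-coding totals.

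The immune subunits were far below the subunits that they replace. *Psmb8* was 0.381, 0.432, 0.658 and 1.07 FPKM at PD 24 and 0.137, 0.277, 0.0244 and 0.675 at PD 52, in the order P MFN2 WT, P MFN2 cKO, L/Z MFN2 WT and L/Z MFN2 cKO. *Psmb9* was 0.962, 0.485, 0.781 and 0.524 FPKM at PD 24 and 0.341, 0.132, 0.183 and 0.355 at PD 52. *Psmb8* passed the FPKM filter only through the L/Z MFN2 cKO library at PD 24, and *Psmb9* never did. *Psmb10* was higher than both, at 4.80, 4.004, 3.82 and 8.86 FPKM at PD 24 and 3.73, 2.95, 2.43 and 2.33 at PD 52. *Psmb5*, the constitutive counterpart of *Psmb8*, was 48.3 to 109 FPKM, *Psmb6*, that of *Psmb9*, 55.7 to 108, and *Psmb7*, that of *Psmb10*, 19.7 to 37.2.

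As shares, *Psmb8* was 0.0453% to 1.38% of *Psmb5* plus *Psmb8*, *Psmb9* 0.225% to 1.51% of *Psmb6* plus *Psmb9*, and *Psmb10* 9.12% to 20.45% of *Psmb7* plus *Psmb10*. *Psmb10* had its highest share in L/Z MFN2 cKO at PD 24 (20.45%, 18.4 to 22.6) and its lowest in P MFN2 WT at PD 52 (9.12%, 7.53 to 10.9). Per kilobase of principal transcript its shares were lower, from 4.24% to 10.2%. The share of *Psmb10* was lower at PD 52 in 4 of 4 pairs, with a mean difference of -6.25 points (SD 3.90, exact permutation p = 0.125, the smallest possible), as was that of *Psmb9*, with -0.772 points (SD 0.441, exact permutation p = 0.125). That of *Psmb8* was lower in 3 of 4 pairs, with -0.448 points (SD 0.579, exact permutation p = 0.25). Genotype did not give one direction for *Psmb10*, with 2 pairs above 0 and 2 below (mean 1.91 points, SD 3.27, exact permutation p = 0.5).

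*Psmb10* was also lower at PD 52 in level in all 4 pairs, by -0.67 on average (SE 0.25), which did not pass the test (limma adjusted p = 0.103). *Psmb8* was higher in MFN2 cKO in 4 of 4 pairs, with few reads. In L/Z at PD 52 it had 1 read in MFN2 WT and 27 in MFN2 cKO, a ratio of 27.7 with a counting interval from 4.56 to 1132. The other ratios were 1.14 (0.596 to 2.17) in P at PD 24, 1.63 (1.04 to 2.59) in L/Z at PD 24 and 2.03 (0.687 to 6.67) in P at PD 52. The genotype effect of *Psmb8* did not pass the test (limma adjusted p = 0.811). *Psmb11* had 41 reads over all libraries and at most 0.129 FPKM, and in P MFN2 WT at PD 52 it had 0 reads, which allows up to 3 by counting error.

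**Figure D5:**
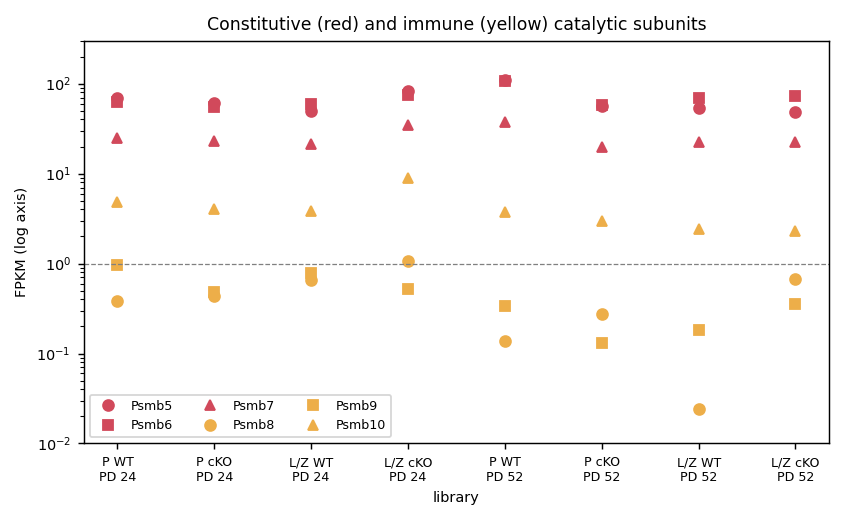
FPKM on a log axis, by library, for the constitutive catalytic subunits (red) and the immune subunits (yellow), with the same marker shape for each replaced pair and a dashed line at 1 FPKM. The red points lie between 19.7 and 109 in every library, *Psmb10* between 2.33 and 8.86, and *Psmb8* and *Psmb9* at or below 1.07.

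Genes of macrophages and lymphocytes, cells that use the immune subunits, differed between the libraries too. The summed FPKM of 12 such genes was 28.5 and 51.2 in P MFN2 WT and MFN2 cKO at PD 24, 71.0 and 141 in L/Z at PD 24, 11.1 and 26.8 in P at PD 52, and 52.8 and 327 in L/Z at PD 52. In the library with the highest sum, L/Z MFN2 cKO at PD 52, *Psmb10* had its lowest FPKM, 2.33, and *Psmb8* its second highest, 0.675. Like this sum, *Psmb8* was higher in MFN2 cKO in 4 of 4 pairs. *Psmb10* was higher in 1 of 4, and *Psmb9* only in L/Z at PD 52. The part of these cells in the immune subunits was not tested. Reads of *Psmb9* and *Tap1* cannot be told apart where the genes overlap, since *Tap1* shares 12.5% of the 50-base windows of *Psmb9* and the library kit does not mark the strand.

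By subcomplex, the sums are a description, since the exact test over 4 pairs cannot give a p below 0.125. The summed FPKM of the 14 constitutive core subunits, *Psma1* to *Psma7* and *Psmb1* to *Psmb7*, lay between 437 in P MFN2 cKO at PD 52 and 825 in P MFN2 WT at PD 52, with a median of 530. The genotype difference of that sum on the log2 scale was -0.07 (SD 0.61 over 4 pairs, exact permutation p = 0.875). The age difference of the alpha sum was 0.49 (SD 0.33, exact permutation p = 0.125), above 0 in 4 of 4 pairs, and *Psma6* was the largest member of that sum in every library. With equal protein-coding totals the difference was not above 0 in P MFN2 cKO, where the protein-coding total rose more than the alpha sum. The ATPase sum was 413 to 604 FPKM and also higher at PD 52 in 4 of 4 pairs, by 0.23 (SD 0.15, exact permutation p = 0.125), but by -0.08 with equal protein-coding totals. The non-ATPase sum varied least, from 428 to 603 FPKM.

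The activators that cap the core in place of the 19S particle were measured beside it. *Psme4* (PA200), which is known for its role in spermatogenesis, was the highest, at 64.0 to 135 FPKM, and *Psme3* was 28.0 to 39.7. *Psme1* and *Psme2*, the activator pair induced by interferon, were 4.53 to 19.2 and 1.88 to 9.52 FPKM, each highest in L/Z MFN2 cKO at PD 24, the library where *Psmb10* was highest. None of these 4 passed the test for genotype, stage or age, and *Psme1* came nearest for genotype (0.60, SE 0.22, limma adjusted p = 0.652), higher in MFN2 cKO in 4 of 4 pairs. *Pomp*, a chaperone of core assembly, was 3.48 to 12.1 FPKM, highest in P MFN2 WT at PD 52, where 20 subunits also were.

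Of 56 further genes of the pathway (activators, assembly factors, partners of the regulatory particle, shuttle factors, transcription factors and interferon and antigen presentation genes), 1 was called for genotype (1.79%, beside 0.137% of all genes), 10 for stage (17.9%, beside 28.4%) and 14 for age. *Cxcl10*, a chemokine induced by interferon, rose in MFN2 cKO by 2.35 (SE 0.16, limma adjusted p = 0.0143). The call was lost without the FPKM filter, without the pair block, in the additive model and with any pair left out, where the effect was 2.23 to 2.42 and limma's adjusted p 0.28 to 0.418. The summed FPKM of 8 Leydig genes was also higher in MFN2 cKO in every pair. In MFN2 WT and MFN2 cKO it was 20.7 and 141 in P at PD 24, 36.8 and 207 in L/Z at PD 24, 261 and 666 in P at PD 52, and 28.2 and 102 in L/Z at PD 52. The sum of the 12 macrophage and lymphocyte genes given above was likewise higher in MFN2 cKO in every pair. The part of either list in *Cxcl10* was not tested. With stage, 4 genes were higher in P and 6 lower. *Ubqln2*, a shuttle factor that carries ubiquitinated proteins to the proteasome, was highest in P relative to L/Z (0.85, SE 0.18, limma adjusted p = 0.0144), and *Ubqlnl*, of the same family, was lowest (-1.49, SE 0.42, adjusted p = 0.037). *Ubqln2* and the sum of 10 Sertoli genes both had their highest value in P MFN2 cKO at PD 24 and their lowest in L/Z MFN2 WT at PD 52. The part of Sertoli RNA in *Ubqln2* was not tested. With age, 5 rose (8.93%, beside 11.9% of all genes) and 9 fell (16.1%, beside 5.41%). *Ubqlnl* rose most, by 3.403 (SE 0.74, limma adjusted p = 0.0309), from 0.164 to 11.7 FPKM at PD 24 to between 11.96 and 107 at PD 52. *Psmf1*, an inhibitor of the core, rose with age by 1.43 (SE 0.30, limma adjusted p = 0.0287) and was lower in P (-0.78, SE 0.24, limma adjusted p = 0.0473). *Ubqlnl* and *Psmf1*, like *Psma6*, *Psmc2* and the spermatid sum, were lowest in P MFN2 cKO at PD 24 and highest in L/Z MFN2 cKO at PD 52.

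Of the genes that fell with age, 6 were among the 17 interferon and antigen presentation genes (35.3%, beside 5.41% of all genes), of which none rose (beside 11.9%). With equal protein-coding totals 3133 of all genes were called lower, against 1146 in this fit. The Sertoli sum was also lower at PD 52 in every pair, and the macrophage and lymphocyte sum in all but L/Z MFN2 cKO. Their part in the fall was not tested. *Irf1*, a transcription factor that induces the immune subunits, fell most, from 21.8 to 39.1 FPKM at PD 24 to 4.52 to 17.5 at PD 52 (-1.66, SE 0.23, limma adjusted p = 0.0145). *Nfe2l1*, the factor that raises proteasome genes when proteasome activity is low, fell from 18.7 to 25.1 FPKM to between 10.03 and 17.1 (-0.64, SE 0.14, limma adjusted p = 0.0334). Its genotype effect was 0.02 (SE 0.14, adjusted p = 0.992). The age calls of *Ubqlnl*, *Psmf1*, *Irf1* and *Nfe2l1* were lost in 3 of the 4 fits with 1 pair left out, which called 0 of all genes, with effects of 2.45 to 4.09, 1.05 to 1.67, -1.90 to -1.51 and -0.71 to -0.55, and also without the pair block and, except for *Irf1*, without the FPKM filter. The stage calls of *Ubqln2* and *Ubqlnl* were lost in 3 such fits and that of *Psmf1* in 4, and all 3 without the FPKM filter or the pair block, and those of *Ubqlnl* and *Psmf1* in the additive model. The 5 assembly factors measured held no call for genotype, stage or age.

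Some subunits share sequence with other genes, and their reads may be split between them. Most 50-base windows of the principal transcript recur in other genes for *Psmb5* (57.1%), *Psmb3* (55.8%) and *Psma5* (55.4%), and the gene that shared most with each was at no more than 6.74 FPKM. *Psma3* shares 22.0% of its windows with *Gm13835*, which reached 78.9 FPKM, so the value of *Psma3* (12.2 to 22.9 FPKM) is uncertain. For *Psmd13*, 15.1% are shared with *Sirt3*. The principal transcripts of *Psma6*, *Psma7*, *Psma8* and *Psmc2* share none.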

How the data were processed

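RNA-seq was analysed in 8 libraries, 1 for each stage, genotype and age. The authors sequenced paired-end reads and deposited FPKM values per gene with gene lengths, made with Novomagic. The submitters' processing notes name Bowtie 0.12.2, CASAVA 1.4 and the builds mm8 and mm9, but the deposited gene coordinates are those of GRCm38: 98.1% of those in GENCODE mouse release 21 are identical, among them 37 of 39 proteasome genes. FPKM multiplied by gene length gave whole reads (within 0.01) for 100% of the values, and between 14340665 and 20379950 reads per library. Intervals are exact binomial (Clopper-Pearson) 95% intervals from these reads and cover counting error only.

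A pair difference was that of log2(FPKM + 1), over genes with FPKM above 1 in either library, and a call was a 2-fold difference on this scale, which understates the change of low genes. A common effect over 4 pairs came from limma 3.58.1 (R 4.3.3), with the pair as a block (3 residual degrees of freedom), over 21175 genes with FPKM above 1 in any library. Calls were made at a Benjamini-Hochberg adjusted p under 0.05. Interactions with age used the same fit (2 degrees of freedom). The pairs differ in stage, age or genotype, and p-values measure the spread between them. Sums and shares were tested by exact sign-flip permutation over the 4 pairs, whose smallest two-sided p is 0.125. On simulated data with 21175 genes and 200 changed genes, the genotype fit recovered 43 of those changed 2-fold and 196 of those changed 4-fold, with 0 and 11 false calls; the stage fit recovered 37 and 197, and the age fit 0 and 193. Whole reads and intervals came from Python 3.11.15 with scipy 1.17.1.

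Each common effect was fitted again with a pseudocount of 0.1, without the FPKM filter, with median-of-ratios scaling, equal protein-coding totals, protein-coding genes only, voom on the reads, an additive model, no block and each pair left out in turn. Further fits used division by each library's lowess trend (fraction 0.3, genes with a mean FPKM above 10) with principal transcript length, or that length in place of the table's, and were added after the data were seen. Principal transcripts came from GENCODE, promoters from RefSeq. The members, lists and tests were chosen with earlier results of these data known. Genes were named by rule: *Psma7*, *Psma8*, *Psmb5* to *Psmb11*, any proteasome gene changed 2-fold in a pair, the 3 largest rises and falls in each common effect, the highest and lowest of each subcomplex, the pathway genes called with the largest change in each direction, and *Psme1* to *Psme4*, *Pomp* and *Nfe2l1*. Others were named after their values were seen.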

Additional observations from a re-analysis of the deposited data

How the results depend on the processing

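The number of proteasome genes called for stage was 2, and it was 1 without the FPKM filter or without the pair block, 4 with median-of-ratios scaling or voom on the reads (*Psmc2* and *Psmd10* in addition), 5 after the length adjustment, and 0 to 3 with 1 pair left out. That for age was also 2, and it was 1 without the FPKM filter, 0 without the pair block, 7 after the length adjustment, where *Psma7*, *Psmb2*, *Psmb3*, *Psmb9* and *Psmb10* were called lower, and 0 to 3 with 1 pair left out. *Psmb9* entered the length-adjusted fit only through P MFN2 WT at PD 24, at an adjusted FPKM of 1.01, so its call is no support for a fall. With equal protein-coding totals *Psmc2* was replaced by *Psmd1* among the 2 called for age. Genotype gave 0 under every alternative run, and both interactions gave 0 under the 6 alternatives run for them. The fits with 1 pair left out have 2 residual degrees of freedom, and 4 of them for genotype, 2 for stage and 3 for age called 0 of all genes. Equal protein-coding totals moved the median age effect of all genes from 0.01 to -0.23 and the calls of all genes from 2523 higher and 1146 lower to 1709 and 3133. The length adjustment, over 14047 protein-coding genes, gave 1374 and 2136. Members below 0 in the P pair at PD 24 numbered 23, and 6 with equal protein-coding totals; those above 0 with age in P MFN2 WT 32, and 15 after the length adjustment; those below 0 with age in L/Z MFN2 WT 19, and 30 with equal protein-coding totals. Every group has 1 library, so the block is the stage, age or genotype that a pair shares, and no block of replicate numbers could be fitted. With 1 library a group, no difference within a pair can be separated from that between preparations. *Psmb11* had 41 reads and *Psmb8* 174 over all libraries, so their ratios have wide counting intervals.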
